A study of Mus musculus with 6 samples.

Results

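Metallothioneins and zinc transporters were examined in purified Paneth cells (PCs), the granule-bearing secretory cells of the small intestinal crypt, through 9 genes chosen by name out of 55414 in the count table. They were the metallothioneins Mt1 and Mt2, the zinc exporters of the SLC30 family Slc30a1, Slc30a2, Slc30a4, Slc30a5 and Slc30a7, and the zinc importers of the SLC39 family Slc39a4 and Slc39a14. All 9 passed the filter on low counts and were tested. RNA had been sequenced from PCs of C57BL/6J mice labelled IFNAR1 KO, in 6 libraries. Of these, 3 came after PBS (the control) and 3 after tumour necrosis factor (TNF), with the small intestine taken after 15 h. Each library was taken as 1 mouse, which was not checked. The knockout of Ifnar1, the gene of a type I interferon receptor subunit, is given in the labels of both groups, so no library here is labelled as having the receptor intact. Age, sex, dose and route of injection are not given in the labels. The question was which of these genes differed in level between PCs of TNF- and PBS-injected mice.

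Zinc inside cells is kept low and bound. Metallothioneins are small cysteine-rich proteins that bind zinc and copper, and their genes are classical targets of the zinc-sensing transcription factor MTF1, which binds metal response elements, and of glucocorticoid and acute-phase signals. SLC30 (ZnT) proteins move zinc out of the cytosol, across the cell surface or into vesicles and the secretory pathway, whereas SLC39 (ZIP) proteins move it into the cytosol. PCs are known for the zinc stored in their secretory granules, and ZnT2, the product of Slc30a2, is known as a zinc transporter of those granules.

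Metal response elements share the core TGCACNC or TGCGCNC, and both were searched on both strands from 250 bases before to 300 bases after the annotated start of the canonical transcript (GENCODE M39, build GRCm39). The windows ran past the start because the TATA box hexamer TATAAA of both metallothionein genes lies after it, beginning 129 bases from the annotated start in Mt1 and 250 bases from it in Mt2. Mt2 held 7 cores and Mt1 held 5. Among the windows of 13002 tested genes, 0.108% held at least 7 cores and 0.892% held at least 5. Because the window was placed with the metallothionein genes in view, these shares are a description and not a test. The cores of the metallothionein genes and of the zinc exporter Slc30a1, all known MTF1 targets, are printed in gene direction with the core in capitals, because these are the members for which metal control through this element is textbook knowledge. A match is a match of letters only, and binding was not measured. Mt1 lies on the plus strand of chromosome 8, and its 5 cores began between 16 bases before and 106 bases after the annotated start.
Mt1 core 1, chr8:94905684-94905710: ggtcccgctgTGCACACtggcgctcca
Mt1 core 2, chr8:94905709-94905735: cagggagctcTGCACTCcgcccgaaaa
Mt1 core 3, chr8:94905727-94905753: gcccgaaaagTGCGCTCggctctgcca
Mt1 core 4 (opposite strand), chr8:94905791-94905817: accgcctgctGGGTGCAaaccctttgc
Mt1 core 5, chr8:94905805-94905831: gcaaacccttTGCGCCCggactcgtcc

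Mt2 lies just before Mt1 on the same strand of chromosome 8. Of its 7 cores, 4 were read on the opposite strand.
Mt2 core 1, chr8:94899013-94899039: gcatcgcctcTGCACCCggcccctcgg
Mt2 core 2, chr8:94899108-94899134: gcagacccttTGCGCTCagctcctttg
Mt2 core 3 (opposite strand), chr8:94899186-94899212: gggggagggcGTGTGCAggctctgtcc
Mt2 core 4 (opposite strand), chr8:94899240-94899266: aattcgggtcGTGCGCAggcccagggg
Mt2 core 5 (opposite strand), chr8:94899294-94899320: gaaaaagggcGTGTGCAggcggcgggg
Mt2 core 6 (opposite strand), chr8:94899313-94899339: cggcgggggcGCGTGCAtggtgccttc
Mt2 core 7, chr8:94899347-94899373: gcggagctttTGCGCTCgacccaatac

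Slc30a1, on the plus strand of chromosome 1, held 3 cores, a number reached by 8.29% of windows.
Slc30a1 core 1, chr1:191638598-191638624: cgcccgccgcTGCACCCggccgcggcc
Slc30a1 core 2 (opposite strand), chr1:191638840-191638866: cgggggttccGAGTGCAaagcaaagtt
Slc30a1 core 3 (opposite strand), chr1:191638913-191638939: cctccgggccGAGCGCAgtcgccgcgg

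Among the remaining members, Slc30a4 held 3 cores, Slc30a2 and Slc30a5 held 2 each and Slc39a14 held 1. Slc30a7 and Slc39a4 held 0 in these windows. At least 1 core was present in 52.5% of windows and at least 2 in 22%, so a low number of cores was common.

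**Figure D1:**
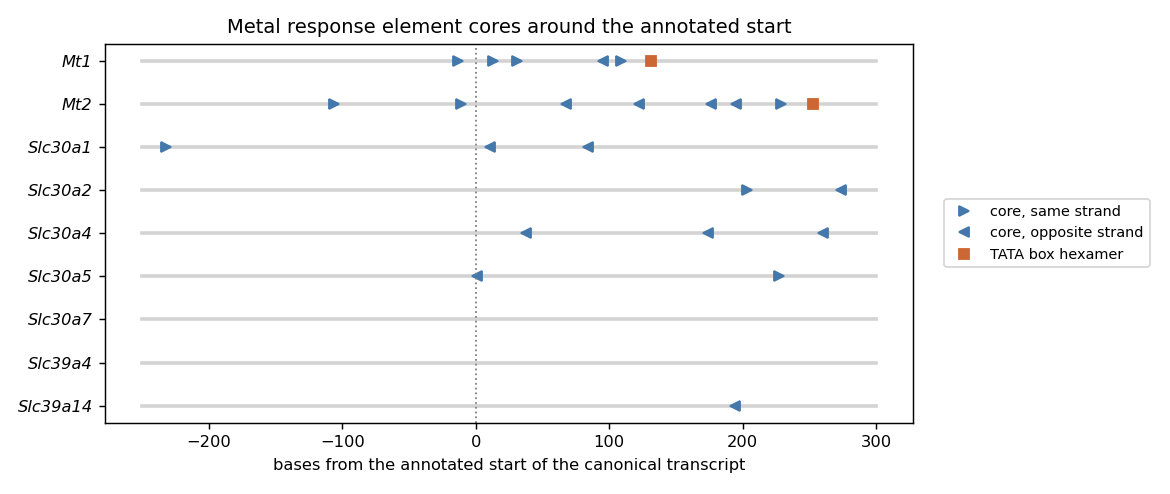
Position of each metal response element core (triangles pointing right for the strand of the gene, left for the opposite strand) and of the TATA box hexamer (squares) in bases from the annotated start, for the 9 members. Mt1 holds 5 cores and Mt2 holds 7, while Slc30a7 and Slc39a4 hold 0.

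Libraries were compared before the members were read. Total counts ranged from 12747484 to 17039511, and 3 counts, taken as the detection limit, corresponded to 0.147 to 0.255 CPM (read counts divided by the size of the library in units of 1000000 reads, on library sizes scaled as described under processing). Such limits cover counting error only. All 8 PC markers examined were counted in every library, at a summed 251300 to 551600 CPM. Of these 8, 1, 6 and 4 lay below every PBS library in TNF replicates 1 to 3. Markers of other cell types were present as well. The 6 goblet markers summed to 2362 to 3384 CPM and the 4 tuft markers to 333 to 1197 CPM. Sums were 20.1 to 85.5 CPM for 4 enteroendocrine and 21.4 to 53.2 CPM for 5 immune markers. Only 2 of the 5 immune markers were counted in every library, Ptprc (3.90 to 33.9 CPM) and Lyz2 (13.1 to 27.6 CPM). Cd3e, Cd79a and Itgam were at 0.685 CPM or less in every library. The 4 stromal and endothelial markers (Col1a1, Col3a1, Pecam1 and Kdr) summed to 0 to 0.667 CPM, and only Kdr was at 0 in all 6 libraries. TNF replicate 1 stood apart from its group: its log2 CPM correlated across genes at 0.884 and 0.883 with the other TNF libraries but at 0.937 to 0.945 with the PBS libraries. Ifnar1 itself was counted in every library, at 5.18 to 12.7 CPM. Counts per gene do not show whether those reads fall outside the disrupted part, so the knockout was not checked here. Libraries also differed in sex-linked genes: PBS replicate 3 held 846 Y-linked counts and TNF replicate 3 held 669, against 0 to 2 elsewhere, and Xist was at 9.41 CPM in PBS replicate 3 and at 192 to 1177 CPM in the others, TNF replicate 3 among them. PBS replicate 1 held reads of the pancreatic acinar genes Prss2 (111 counts) and Cpa1 (215 counts), both at 0 elsewhere. Results that rest on TNF replicate 1 are given with and without it. This library was singled out from these same counts. Adjusted p-values without it therefore describe the other libraries and are not significance levels fixed in advance. Values measure the spread between libraries, taken as mice. TNF replicate 3 held both Y-linked counts and Xist, so whether it came from 1 mouse cannot be told from these counts. In bulk RNA, fewer cells of a type and less RNA per cell cannot be told apart.

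With all 6 libraries, 0 of the 9 members passed an adjusted p of 0.05 (termed 5%) in edgeR, the same share as over all genes, of which 0% (0 of 13026) passed. At an unadjusted p under 0.05 there were 4 members, Mt1, Mt2 and Slc39a4 higher and Slc30a5 lower in TNF, beside 1596 of 13026 genes. DESeq2 called 1 member, Mt2 (adjusted p 0.00884), against 1.75% of the genes it tested. The libraries of both groups were fully separated for 2 members in the higher direction, Mt1 and Mt2, against 9.07% of all genes, and for 1 in the lower direction, Slc30a5, against 7.82%. Without TNF replicate 1, edgeR called 2 members higher (Mt2 and Slc39a4), against 9.1% of all genes, and 1 lower (Slc30a5), against 5.4%. The median log2 fold change of the 9 members was -0.04 over all libraries and 0.10 without TNF replicate 1, beside -0.001 and -0.007 over all genes tested. With all libraries 4 members lay above 0 and 5 below, and the metallothioneins, exporters and importers are described in turn.

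**Figure D2:**
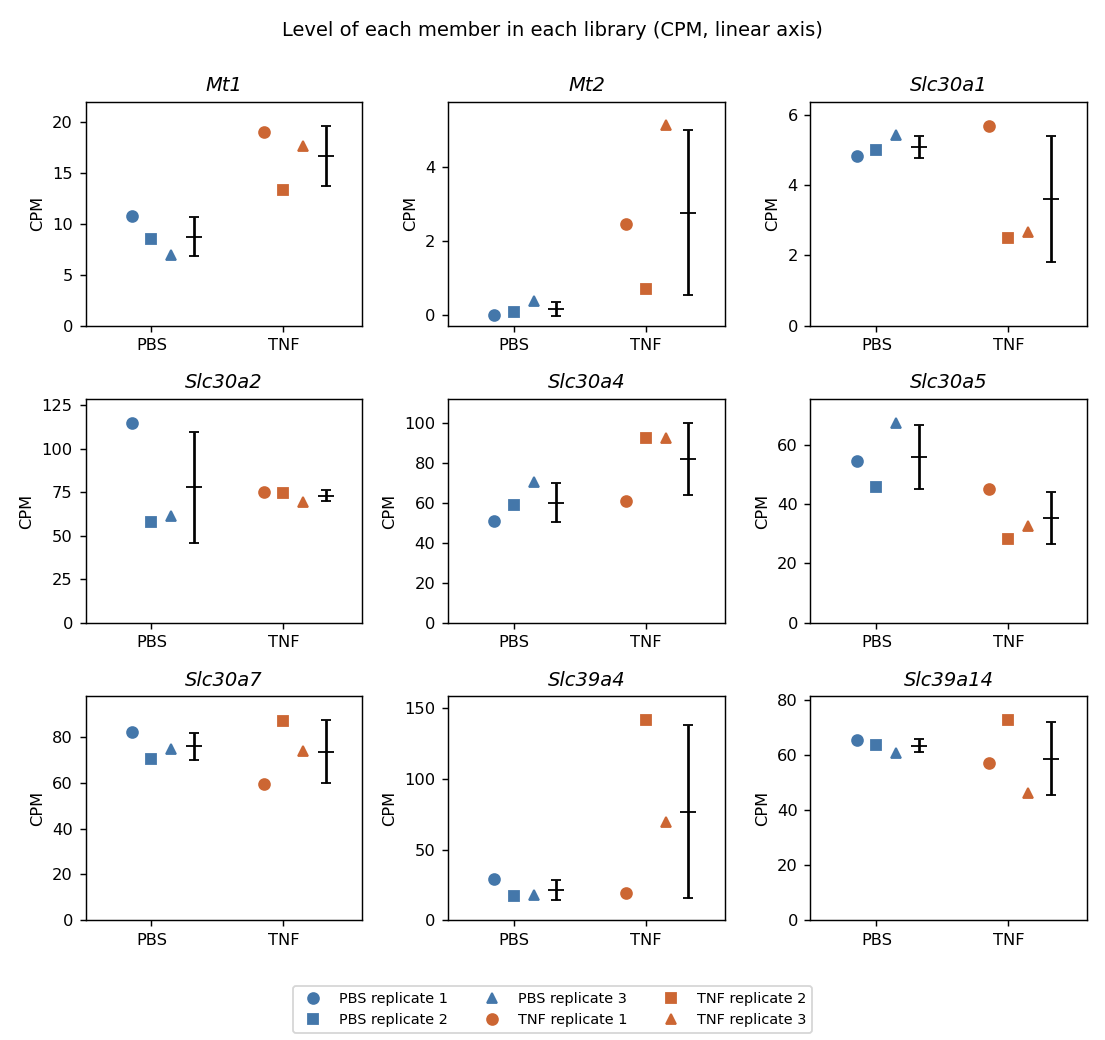
CPM of the 9 members in each library on linear axes, with PBS in blue and TNF in orange, replicates 1 to 3 as circles, squares and triangles, and mean and SD (n = 3) in black. Only Mt1, Mt2 and Slc30a5 show groups that do not overlap, and Slc39a4 reaches 141.5 CPM in TNF replicate 2 but 19.55 CPM in TNF replicate 1.

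Mt1 and Mt2 were higher in every TNF library than in every PBS library, though neither passed 5% with all libraries. Mt3, the only other metallothionein tested, lay the other way, at 2.75 ± 0.634 CPM in PBS and 2.02 ± 0.864 CPM in TNF (SD, n = 3; log2 fold change -0.44, adjusted p 0.774). Mt1 (ENSMUSG00000031765, chromosome 8, 94905710 to 94906955, plus strand) stood at 10.75, 8.54 and 6.91 CPM after PBS and at 19.0, 13.4 and 17.6 CPM after TNF, replicates being listed from 1 to 3 here and throughout. Every TNF library lay above every PBS library, TNF replicate 1 included. The means were 8.73 ± 1.93 CPM in PBS and 16.7 ± 2.96 CPM in TNF (SD, n = 3), a log2 fold change of 0.93 (SE 0.27) that did not pass 5% (edgeR adjusted p 0.278). Without TNF replicate 1 the log2 fold change was 0.84 (SE 0.27, adjusted p 0.0630). These levels rested on 94 to 149 reads per PBS library and 219 to 273 per TNF library.

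Mt1 has a short transcript (762 bases), and short transcripts as a class differed between the libraries. Over 921 genes with a canonical transcript under 1000 bases, the median log2 level relative to the PBS mean was 0.53, -0.10 and 0.28 in TNF replicates 1 to 3. Mt1 itself stood at 1.11, 0.61 and 1.01 on that scale (pseudocount 0.1 CPM). The order of the 3 libraries was the same in both, with replicate 1 highest and replicate 2 lowest, and Mt1 lay above the class in each. Genes of 1000 to 4000 bases were at 0.06, 0.05 and 0.04. Mt2, with a canonical transcript of 748 bases, belongs to the same class. The part that length plays in the Mt1 and Mt2 differences was not tested.

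Mt2 (ENSMUSG00000031762, chromosome 8, 94898819 to 94900207, plus strand) had 0, 1 and 5 reads in the PBS libraries and 29, 14 and 64 reads in the TNF libraries. In CPM these were 0, 0.07 and 0.37 in PBS and 2.46, 0.68 and 5.15 in TNF. The groups did not overlap, but TNF replicate 2 lay close to PBS replicate 3, and levels within TNF were spread widely (2.77 ± 2.25 CPM, against 0.145 ± 0.196 CPM in PBS; SD, n = 3). A count of 0, as in PBS replicate 1, allows up to 0.216 CPM. Summed over libraries there were 6 reads in PBS and 107 in TNF, a ratio of 16.96 after scaling (95% exact interval 7.54 to 47.2, counting error only). The fitted log2 fold change was 4.19 (SE 1.15) at an edgeR adjusted p of 0.278, and 4.28 (SE 1.23) at 0.0391 without TNF replicate 1. Leaving out PBS replicate 3 gave 5.97, and leaving out TNF replicate 3 gave 3.37. Its adjusted p ranged from 0.00220 to 0.897 over all alternatives, and a fitted fold change on so few reads depends on the prior count. In the annotation, 82.4% of the Mt2 exon bases lie opposite exons of the long non-coding RNA Gm45774. Since use of strand in counting is not given in the sources used here, reads of both genes cannot be told apart with certainty. Gm45774 itself was counted with 1 read over all libraries.

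Both metallothioneins were also compared with each other inside each library, where no scaling is needed. The log2 ratio of Mt1 to Mt2 counts was 8.22, 6.42 and 4.10 in PBS and 2.93, 4.24 and 1.77 in TNF. TNF replicate 2 overlapped with PBS replicate 3, and the mean difference of -3.27 had an exact permutation p of 0.2 (two-sided, adjusted 0.267 over 4 ratios), where 3 against 3 libraries cannot give less than 0.1. That difference was -2.28 without PBS replicate 1 and -4.345 without PBS replicate 3. Mt1 had more reads than Mt2 in every library.

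Exporters at the cell surface and in vesicles differed among themselves in level and in direction. Slc30a1 (ENSMUSG00000037434, chromosome 1, 191638808 to 191645361, plus strand) encodes ZnT1, the exporter of the plasma membrane. It had 4.83, 5.01 and 5.44 CPM after PBS and 5.69, 2.495 and 2.66 CPM after TNF. TNF replicate 1 was the highest library of all and TNF replicates 2 and 3 the lowest. The log2 fold change was -0.50 (SE 0.43, adjusted p 0.665), and -0.96 (SE 0.40, adjusted p 0.142) without TNF replicate 1.

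Slc30a1 and Mt1, both textbook MTF1 targets, stood on opposite sides of 0. The log2 ratio of Mt1 to Slc30a1 counts was 1.15, 0.77 and 0.34 in PBS and 1.73, 2.41 and 2.71 in TNF. The groups did not overlap, with a mean difference of 1.53 and an exact permutation p of 0.1, the smallest that 3 against 3 libraries allow (adjusted 0.2 over 4 ratios). This ratio was chosen after the values had been seen. It sets a transcript of 762 bases against one of 5282 bases, and a ratio within a library keeps shifts by length. Median log2 levels in TNF replicates 1 to 3 were 0.53, -0.10 and 0.28 for genes under 1000 bases. For genes over 4000 bases they were -0.11, -0.005 and -0.09. The part of length in this ratio was not tested. Mtf1 itself, the gene of the zinc sensor, was at 11.3 ± 1.77 CPM in PBS and 12.0 ± 1.46 CPM in TNF (SD, n = 3; log2 fold change 0.09, adjusted p 0.906).

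Slc30a2 (ENSMUSG00000028836, chromosome 4, 134070234 to 134081795, plus strand) was the member with the highest level per length. It had 114.6, 57.6 and 61.4 CPM in the PBS libraries and 74.9, 74.4 and 69.3 CPM in the TNF libraries. PBS replicate 1 was far above all other libraries, and the remaining PBS libraries lay below all 3 TNF libraries. The log2 fold change was -0.10 (SE 0.28, adjusted p 0.913) with all libraries, and it changed sign to 0.295 (adjusted p 0.625) without PBS replicate 1. That library also held the pancreatic acinar reads: summed CPM of Prss2, Cela1 and Cpa1 was 44.8 there against 2.54 and 5.29 in the other PBS libraries and 4.55 to 8.75 in TNF, and Slc30a2 is known to be expressed in acinar cells. The part of those reads in the Slc30a2 level was not tested. A further limit is that 40.2% of the Slc30a2 exon bases lie opposite exons of Extl1, which was counted at 5.36 to 13.1 CPM.

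Slc30a4 (ENSMUSG00000005802, chromosome 2, 122523004 to 122544845, minus strand) encodes ZnT4, a vesicular transporter known from zinc secretion into milk. Its level was 51.1, 59.1 and 70.3 CPM after PBS and 61.1, 92.3 and 92.4 CPM after TNF. TNF replicates 2 and 3 lay above every PBS library, while TNF replicate 1 lay within the PBS range. The log2 fold change was 0.45 (SE 0.24, adjusted p 0.475), and 0.64 (SE 0.20, adjusted p 0.0568) without TNF replicate 1, just short of 5%.

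Slc30a5 (ENSMUSG00000021629, chromosome 13, 100936795 to 100970006, minus strand) and Slc30a7 (ENSMUSG00000054414, chromosome 3, 115732621 to 115801060, minus strand) encode ZnT5 and ZnT7, which load zinc into the early secretory pathway, where zinc-requiring enzymes such as alkaline phosphatases are filled. Slc30a5 had 54.3, 45.7 and 67.2 CPM in the PBS libraries and 45.0, 28.3 and 32.5 CPM in the TNF libraries. All TNF libraries lay below all PBS libraries, though TNF replicate 1 was only just below PBS replicate 2. The log2 fold change was -0.66 (SE 0.24, adjusted p 0.334) with all libraries. Without TNF replicate 1, Slc30a5 fell by 0.86 on the log2 scale (SE 0.22, adjusted p 0.0239, within a range of 0.0239 to 0.919 over all alternatives).

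Slc30a7 had 82.4, 70.4 and 74.9 CPM after PBS and 59.7, 87.2 and 73.8 CPM after TNF. TNF libraries lay on both sides of the PBS libraries, with a log2 fold change of -0.04 (SE 0.21, adjusted p 0.947) and 0.10 (SE 0.19, adjusted p 0.773) without TNF replicate 1. Exons of Dph5 lie opposite 15.5% of its exon bases. The partner of ZnT5 is ZnT6, the product of Slc30a6, and the log2 ratio of Slc30a5 to Slc30a6 counts was 0.73, 0.73 and 1.26 in PBS and 0.61, 0.39 and 0.31 in TNF. These groups did not overlap (difference -0.47, exact permutation p 0.1, adjusted 0.2 over 4 ratios), and this ratio too was chosen after the values had been seen.

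Of the importers, Slc39a4 varied more between TNF libraries than any other transporter among the members. Slc39a4 (ENSMUSG00000063354, chromosome 15, 76496580 to 76504172, minus strand) encodes ZIP4, the zinc uptake transporter of the apical gut surface that is defective in acrodermatitis enteropathica. It had 29.2, 17.02 and 17.9 CPM in the PBS libraries and 19.55, 141.5 and 69.25 CPM in the TNF libraries. TNF replicates 2 and 3 were far above all PBS libraries, whereas TNF replicate 1 lay inside the PBS range. With all libraries the log2 fold change was 1.85 (SE 0.58, adjusted p 0.297), and without TNF replicate 2 it was 1.02 (adjusted p 0.618). Without TNF replicate 1, Slc39a4 rose by 2.32 on the log2 scale (SE 0.32, adjusted p 7.51e-04), and its adjusted p ranged from 2.60e-08 to 0.897 over all alternatives. Exons of 2 long non-coding RNAs, Gm62519 and Gm62526, lie opposite 12% and 12.7% of its exon bases.

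ZIP4 is known from enterocytes as well, so enterocyte markers are given beside it. Summed over 14 markers, their level was 333 to 375 CPM after PBS and, from TNF replicate 1 to 3, 266, 134 and 99.8 CPM, and 8 of the 14 were counted in every library. Of the 14 markers, 10, 11 and 13 lay below every PBS library in TNF replicates 1 to 3. Fabp2 lay above every PBS library in TNF replicate 1, at 91.4 CPM against 60.3 to 75.75 CPM. In TNF replicates 2 and 3 it was at 6.85 and 11.1 CPM. In TNF replicates 2 and 3 Fabp1 lay within the PBS range, at 10.7 and 10.15 CPM against 0.577 to 15.55 CPM in PBS. Intestinal stem cell markers (4 genes, all counted in every library) summed to 2123 to 2590 CPM in PBS, 4095 CPM in TNF replicate 1, and 361 and 373 CPM in TNF replicates 2 and 3. Most of that sum was Olfm4, at 3887, 232.5 and 272 CPM in TNF replicates 1 to 3. Smoc2 was at 131, 58.5 and 57.3 CPM in these libraries, against 115 to 150 CPM in PBS. Ascl2 was at 7.31, 2.10 and 1.21 CPM, against 4.81 to 11.5 CPM in PBS. Lgr5 was at 69.0, 68.3 and 42.2 CPM, so TNF replicates 1 and 2 did not stand apart in it. The part of other cell types in the Slc39a4 difference was not tested.

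Slc39a14 (ENSMUSG00000022094, chromosome 14, 70540678 to 70588914, minus strand) encodes ZIP14, an importer of zinc, manganese and iron that is known in liver for its response to inflammation. It had 65.4, 63.8 and 60.8 CPM in the PBS libraries and 57.2, 72.65 and 46.3 CPM in the TNF libraries. PBS libraries were close together and lay inside the range of the TNF libraries. The log2 fold change was -0.11 (SE 0.22, adjusted p 0.867), and -0.07 (SE 0.22, adjusted p 0.877) without TNF replicate 1.

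**Figure D3:**
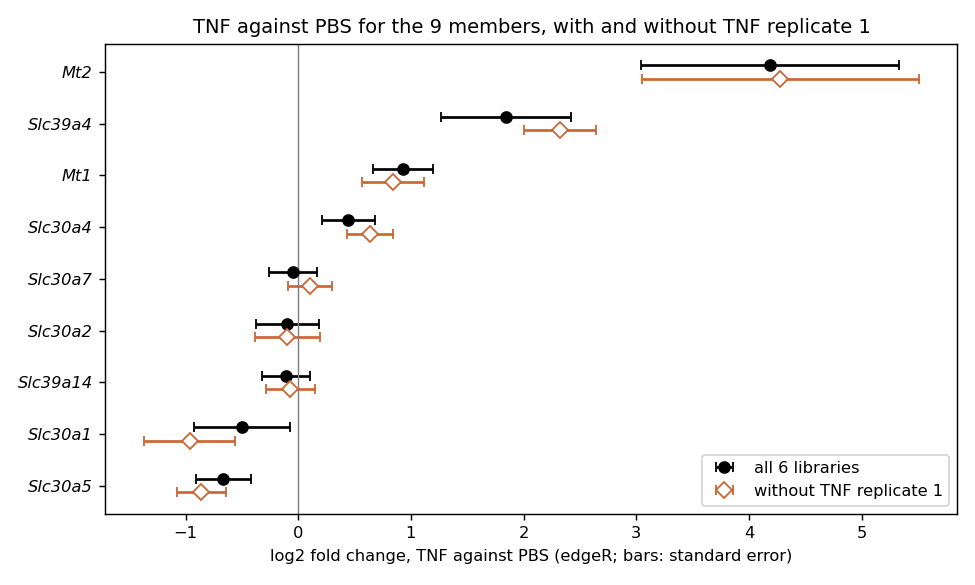
Log2 fold change of TNF against PBS (edgeR, bars are standard errors) for the 9 members, with all 6 libraries (filled circles) and without TNF replicate 1 (open diamonds). Mt2 lies at 4.19 and 4.28, Mt1 at 0.93 and 0.84, and Slc39a4 moves from 1.85 to 2.32.

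Levels of different genes were compared only per length, as CPM per 1000 bases of merged exons (RPKM). In PBS the order was Slc30a2 (14.9 to 29.7 RPKM over the 3 libraries), Slc30a4 (8.67 to 11.9 RPKM), Mt1 (5.54 to 8.63 RPKM), Slc39a14 (5.03 to 5.41 RPKM), Slc39a4 (4.09 to 7.01 RPKM), Slc30a7 (4.70 to 5.50 RPKM), Slc30a5 (4.05 to 5.96 RPKM), Slc30a1 (0.853 to 0.960 RPKM) and Mt2 (0 to 0.387 RPKM). Neighbours from Slc39a14 to Slc30a5 overlapped in their ranges and are not ordered beyond their spread, while the other neighbours did not overlap. The range of Mt1 also overlapped those of Slc39a4 and Slc30a5, so its place is not set apart from them. In TNF, Slc30a2 kept the first place at 18.0 to 19.4 RPKM and Slc39a4 came second with 4.69 to 34.0 RPKM, a range that spanned those of Slc30a2, Slc30a4 and Mt1. The choice of length moved the middle of the order: on canonical transcripts Slc39a14 had rank 2 and Slc30a4 rank 4 in PBS. Slc30a2 had rank 1 and Mt1 rank 3 with either length.

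Genes most like a member over the 6 libraries were sought for Mt1, Slc30a2 and Slc39a14 by Pearson's r of log2 CPM among 9767 genes, as a description. Closest to Mt1 were the ribosomal protein genes Rpl11 (r = 0.993) and Rpl38 (r = 0.993) and the linker histone gene H1f2 (r = 0.983), and 24 genes exceeded 0.95. Rpl38 had 91.2, 74.0 and 60.8 CPM after PBS and 154, 102 and 150 CPM after TNF, the same order of libraries as Mt1. Closest to Slc30a2 were Zfp36l1 (0.992), Ahcy (0.985) and Acbd6 (0.984), all highest in PBS replicate 1. For Slc39a14 they were Adgra3 (0.990), Stau1 (0.981) and Ddx52 (0.969), all highest in TNF replicate 2 and lowest in TNF replicate 3. These points share libraries and depth, so the values describe likeness only.

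The remaining zinc genes were 20 further metallothioneins, transporters and Mtf1. Of these, 14 were tested, and 0 passed 5% with all libraries, 6 having a log2 fold change above 0 and 8 below (median -0.24, beside -0.001 over all genes). At an unadjusted p under 0.05 there were 3, beside 1596 of 13026 genes. DESeq2 called 0 of the 16 it tested, against 1.75% of all genes it tested. Mt4, Slc30a3, Slc30a8, Slc30a10, Slc39a2 and Slc39a12 had too few counts to pass the edgeR filter, and Mt4 and Slc30a8, the insulin granule transporter ZnT8, had 0 counts in every library. Among the 14 tested, TNF libraries lay below all PBS libraries for 3 genes (Slc39a8, Slc39a9 and Slc39a13), against 7.82% of all genes, and above them for 0, against 9.07%. Slc39a13, for instance, had 9.23, 12.6 and 10.2 CPM in the PBS libraries and 5.01, 5.53 and 5.88 CPM in the TNF libraries (log2 fold change -0.96, adjusted p 0.278). The exporter gene Slc30a10 had 2.16, 0.267 and 0.367 CPM after PBS against 0, 0.196 and 0 CPM after TNF (DESeq2 adjusted p 0.268). These rested on 30, 4 and 5 counts in PBS and 0, 4 and 0 in TNF. Outside PBS replicate 1, all were at or near the detection limit, so the groups cannot be told apart there.

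Per length, the highest of these genes by the mean over all 6 libraries were Slc39a1 (mean 34.0 RPKM), Slc39a11 (19.96 RPKM), Slc39a8 (11.1 RPKM), Slc39a9 (6.18 RPKM) and Slc30a6 (4.63 RPKM). Slc39a1, which encodes the surface importer ZIP1, was first through TNF replicates 2 and 3. In PBS its mean was 20.2 RPKM, below Slc39a11 at 22.4 RPKM and beside Slc30a2 at 20.2 RPKM. Slc39a1 had 97.6, 67.3 and 96.25 CPM after PBS and 78.1, 299 and 241.5 CPM after TNF. As with Slc39a4, only TNF replicates 2 and 3 lay above the PBS libraries.

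Without TNF replicate 1, edgeR called 3 of the 14, 2 higher and 1 lower, against 9.1% and 5.4% of all genes. Slc39a1 rose by 1.65 on the log2 scale (adjusted p 9.98e-04) and Slc39a10, the gene of ZIP10, rose by 1.10 (adjusted p 0.0188). Slc39a5, which encodes ZIP5 of the basolateral membrane, fell by 3.28 (adjusted p 2.53e-04). Its level was 14.2, 10.75 and 11.2 CPM in the PBS libraries and 13.1, 1.42 and 0.966 CPM in the TNF libraries, so TNF replicate 1 again sat with the PBS libraries. With all libraries their adjusted p were 0.324, 0.574 and 0.555.

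The apical importer gene Slc39a4 and the basolateral Slc39a5 therefore stood on opposite sides in TNF replicates 2 and 3. The log2 ratio of Slc39a4 to Slc39a5 counts was 1.04, 0.66 and 0.67 in PBS and 0.58, 6.62 and 6.11 in TNF. TNF replicate 1 was the lowest of all 6 libraries and the other TNF libraries the highest, and the mean difference of 3.64 had an exact permutation p of 0.4 (adjusted 0.4 over 4 ratios). This ratio was also chosen after the values had been seen.

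**Figure D4:**
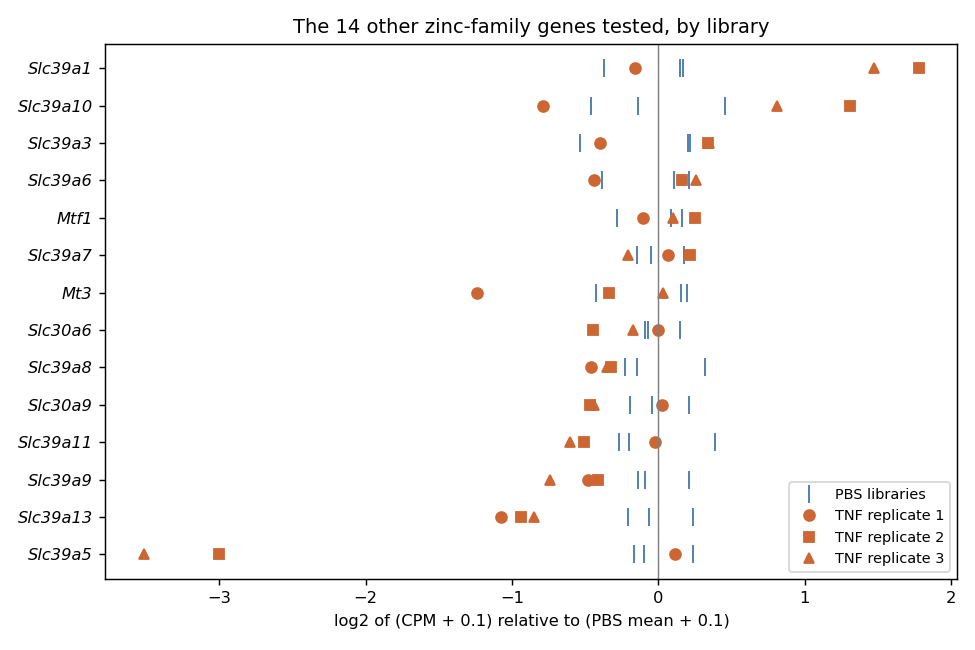
Log2 of CPM (pseudocount 0.1) relative to the PBS mean for the 14 other zinc genes tested, with PBS libraries as blue bars and TNF replicates 1 to 3 as orange circles, squares and triangles. Slc39a1 and Slc39a10 are high and Slc39a5 is low in TNF replicates 2 and 3 only, while all 3 TNF libraries are below PBS for Slc39a8, Slc39a9 and Slc39a13.

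Genes that act on metallothionein and transporter transcription were 6: Mtf1, the glucocorticoid receptor gene Nr3c1, Stat3, the interleukin-6 receptor genes Il6ra and Il6st, and Nfe2l2, which encodes the oxidative stress factor NRF2. With all libraries 0 of 6 passed 5% in edgeR, as did 0% of all genes, and 0 in DESeq2, against 1.75% of all genes. At an unadjusted edgeR p under 0.05 there were 2, beside 1596 of 13026 genes. Nfe2l2 was higher in every TNF than in every PBS library, which held for 9.07% of all genes. It was at 26.1 ± 4.87 CPM in PBS and 38.8 ± 4.60 CPM in TNF (SD, n = 3; log2 fold change 0.57, adjusted p 0.342). Il6st was at 33.2 ± 1.40 CPM in PBS and 58.9 ± 29.7 CPM in TNF (adjusted p 0.400), and without TNF replicate 1 it rose by 1.19 on the log2 scale (adjusted p 0.00231). Log2 fold changes of Nr3c1, Stat3 and Il6ra were -0.19, -0.19 and 0.28 (adjusted p 0.843, 0.858 and 0.845).

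Iron and copper genes were read beside the zinc genes, since metallothioneins bind copper and answer to oxidative stress. Of 18 listed, 17 were tested and 0 passed 5% in edgeR with all libraries. At an unadjusted p under 0.05 there were 5, beside 1596 of 13026 genes. DESeq2 called 1, the ferritin light chain gene Ftl1 (adjusted p 0.0127), against 1.75% of all genes it tested. Without TNF replicate 1, 5 passed 5% as higher and 1 as lower, against 9.1% and 5.4% of all genes. The ferritin gene Ftl1 rose by 1.70 on the log2 scale (adjusted p 5.80e-04) and the haem oxygenase gene Hmox1 by 2.701 (adjusted p 0.00133). The copper genes Atp7b and Sod1 rose by 0.95 and 0.73 (adjusted p 0.0342 and 0.0366), and the transferrin receptor gene Tfrc fell by 0.75 (adjusted p 0.0217). In TNF replicate 1, where Mt1 and Mt2 lay above the PBS libraries, Hmox1 was at 1.02 CPM. That is below its lowest PBS library (1.10 CPM), against 8.02 and 8.70 CPM in TNF replicates 2 and 3. Ftl1, Atp7b, Sod1 and Tfrc lay above every PBS library in TNF replicate 1, at 104, 19.7, 97.5 and 92.3 CPM. Their highest PBS libraries were at 94.1, 16.35, 93.3 and 81.1 CPM. The part of oxidative stress in the metallothionein levels was not tested.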

How the data were processed

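Total RNA of sorted PCs was sequenced with single-end reads, per the labels. The authors deposited raw counts per Ensembl gene. The submitters' processing notes name FastQC, Trimmomatic 0.39, STAR 2.7.10a, DESeq2 and build mm39. Counting tool, annotation release, strand setting and treatment of multimapped reads are not given in these sources, so overlapping genes are uncertain. The paper supplied with the data concerns other experiments and served for style only.

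Groups came from the labels. Counts (12747484 to 17039511 per library) were tested in R 4.3.3 with edgeR 4.0.16: filterByExpr (minimum count 10, minimum total 15; 13026 genes with 99.8% of counts), trimmed mean of M-values (TMM) scaling, a two-sided quasi-likelihood test with group as the only term and Benjamini-Hochberg adjustment over all tested genes. SE was taken as log2 fold change over root F. CPM used TMM-scaled library sizes. Gene models were GENCODE M39 (54749 identifiers matched). Count ratios used 0.5 added to each count and exact permutation tests in scipy 1.17.1. Alternatives used DESeq2 1.42.0 and limma 3.58.1.

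All 9 members were named, with the 5 highest other zinc genes, those passing 5%, the 6 regulators, and up to 5 iron, copper or manganese genes passing 5%. Members and lists were chosen with earlier results of these data known.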

Additional observations from a re-analysis of the deposited data

How the results depend on the processing

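Alternatives were relative log expression (RLE) scaling, library size alone, TMM leaving aside genes that took over 1% of counts, testing every gene, testing from a mean CPM of 5 up, DESeq2, limma-voom with and without sample weights, the replicate number as a block, a 1% threshold and leaving out each library. Members past 5% numbered 0 in the edgeR comparison, 2 when every gene was tested (Mt2 and Slc39a4), 1 with DESeq2 (Mt2), 3 with sample weights (Mt1, Slc30a5 and Slc39a4), and 0 to 3 when 1 library was left out, the 3 coming without TNF replicate 1. Other zinc genes past 5% numbered 0, then 2 when every gene was tested (Slc39a1 and Slc39a5), 3 with sample weights (Slc39a1, Slc39a5 and Slc39a13), and 0 to 3 when 1 library was left out. The share of all genes past 5% is not given here for the fits with every gene or with sample weights. Counts from those fits therefore have no background beside them. Of 133 alternative fold changes over the members, 127 kept the direction and 6 reversed. Slc30a2 reversed to 0.13 with sample weights and ran from -0.28 to 0.29 when 1 library was left out. Slc30a7 reversed to 0.024 with sample weights and ran from -0.22 to 0.10 when 1 library was left out, and Slc39a14 ran from -0.32 to 0.041. The cause of these reversals was not tested. Under scaling by library size the median over all genes was -0.11, and the fold changes of the members moved down, except that of Slc39a4, which moved from 1.85 to 1.915. A mean CPM of at least 5 left Mt2 and Slc30a1 untested. The Mt1 to Mt2 ratio kept its direction without each library, running from -4.345 to -2.28. The canonical transcript length, added after seeing the data, left Mt1 at rank 3 in level.

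Deviations of same-numbered libraries from their group correlated at -0.01, -0.07 and 0.03. Only PBS replicate 3 and TNF replicate 3 held more than 2 Y-linked counts (846 and 669). A pairing of samples by number was neither shown nor excluded by these values. With a replicate block 0 members passed 5%, and log2 fold changes were 0.94 for Mt1, 1.54 for Slc39a4 and -0.02 for Slc30a2. At these depths Mt2 in PBS was at or near the limit of 3 counts.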
